A study of Homo sapiens with 10 samples.

Results

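The 9 long genes TENM2, PTPRN2, NALF1, RYR2, CDH13, MYO16, RPS6KA2, TRIO and CDH4 were chosen by the number of accessible chromatin peaks that lie in them. A peak belongs to a gene when it shares at least 1 base with the gene's span in the RefSeq table of build GRCh38.p14 (hg38). The 9 genes held 931 of the 161934 peaks, or 0.575%, over 7.22 Mb. Since the count itself chose the genes, it is given as a description and without a test. Positions along the gene, intron numbers, widths and nested genes were not used in the choice, but the peaks of 1 gene are not replicates, so these too are described and not tested.

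The peaks come from ATAC-seq, which tags accessible DNA with a transposase, on MDA-MB-231 cells, a widely used line derived from a triple-negative breast tumour. There were 5 ARID1A knockout and 5 control libraries. ARID1A belongs to the SWI/SNF chromatin remodelling complex, and how it was knocked out, or whether the cells were 1 clone, is not stated in the labels. The peaks form 1 list for the whole series with 0 columns that hold a value per library, so no level or replicate error was computed, knockout and control were not compared, the loss of ARID1A was not checked, and the depth is unknown.

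Most of a very long human gene is intron, and intronic chromatin can hold enhancers, alternative promoters and the promoters of other genes that lie inside. A peak in an intron therefore does not by itself belong to the host gene's promoter. Several of these genes are best known from nerve or muscle. TENM2 encodes teneurin-2, a large transmembrane adhesion protein of synapses, and CDH4 (R-cadherin) and CDH13 (T-cadherin, which is anchored to the membrane by a lipid) are cadherins. NALF1 encodes a partner of the sodium leak channel NALCN, and RYR2 the calcium release channel of heart muscle. PTPRN2 encodes phogrin, a phosphatase-like protein of secretory granules, and MYO16 an unconventional myosin. RPS6KA2 encodes the kinase RSK3, which acts downstream of ERK, and TRIO a guanine nucleotide exchange factor for small GTPases.

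Promoter windows show how differently the starts of these genes sit relative to the peaks. Each window runs from 250 bases before to 50 bases after a RefSeq start. RefSeq gave 11 such windows for 7 of the genes, of which 7 overlapped a peak. The 7 windows printed are the 3 of RPS6KA2, since its starts differ in coverage, and 4 chosen to set covered against uncovered starts. Capitals mark matches, on either strand, to the letter patterns of 8 motifs. The AP-1 pattern, a site of Fos and Jun factors, was read as TGANTCA. That of the cyclic AMP response element, CRE, was read as TGACGTCA. The TEAD factors of the Hippo pathway were searched for as GGAATG. Among core promoter elements, the TATA box was taken to be TATAAA and the CCAAT box to be those 5 letters. For the GC box, a site of Sp1-like factors, the letters GGGCGG were used. ETS factors were searched for as CCGGAAG, and NRF1, a regulator of many housekeeping promoters, by its usual pattern. Neighbouring GC box matches may share a base.
RPS6KA2 start at 166862525, chr6:166862476-166862775, minus strand: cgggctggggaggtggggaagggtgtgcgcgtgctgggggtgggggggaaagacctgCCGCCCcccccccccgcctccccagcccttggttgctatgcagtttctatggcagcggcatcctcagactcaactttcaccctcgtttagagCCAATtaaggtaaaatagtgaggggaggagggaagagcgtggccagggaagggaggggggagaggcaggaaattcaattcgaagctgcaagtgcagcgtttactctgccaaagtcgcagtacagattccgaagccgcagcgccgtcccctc
RPS6KA2 start at 166627251, chr6:166627202-166627501, minus strand: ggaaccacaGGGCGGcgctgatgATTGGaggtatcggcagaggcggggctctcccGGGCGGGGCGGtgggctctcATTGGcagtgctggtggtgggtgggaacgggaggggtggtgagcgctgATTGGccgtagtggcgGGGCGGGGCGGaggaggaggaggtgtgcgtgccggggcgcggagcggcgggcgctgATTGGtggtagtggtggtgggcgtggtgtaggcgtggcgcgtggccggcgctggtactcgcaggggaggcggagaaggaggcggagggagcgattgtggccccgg
RPS6KA2 start at 166544690, chr6:166544641-166544940, minus strand: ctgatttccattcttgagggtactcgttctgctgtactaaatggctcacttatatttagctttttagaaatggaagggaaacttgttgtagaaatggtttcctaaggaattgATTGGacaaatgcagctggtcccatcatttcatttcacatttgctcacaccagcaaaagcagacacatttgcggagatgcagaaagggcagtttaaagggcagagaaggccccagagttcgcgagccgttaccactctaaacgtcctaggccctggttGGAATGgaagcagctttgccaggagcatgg
NALF1 start, chr13:107867447-107867746, minus strand: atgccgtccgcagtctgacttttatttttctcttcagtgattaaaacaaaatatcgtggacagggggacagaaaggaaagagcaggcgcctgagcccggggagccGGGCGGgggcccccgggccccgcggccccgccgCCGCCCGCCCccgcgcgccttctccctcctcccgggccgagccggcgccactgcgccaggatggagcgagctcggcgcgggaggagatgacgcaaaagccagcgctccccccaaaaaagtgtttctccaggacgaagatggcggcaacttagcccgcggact
TRIO start, chr5:14143092-14143391, plus strand: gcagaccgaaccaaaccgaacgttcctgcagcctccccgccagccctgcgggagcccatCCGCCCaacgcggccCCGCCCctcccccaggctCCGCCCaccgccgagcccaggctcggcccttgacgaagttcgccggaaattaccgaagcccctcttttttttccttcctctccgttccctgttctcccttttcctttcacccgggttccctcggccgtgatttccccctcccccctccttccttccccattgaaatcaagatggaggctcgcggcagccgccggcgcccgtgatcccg
RYR2 start, chr1:237041934-237042233, plus strand: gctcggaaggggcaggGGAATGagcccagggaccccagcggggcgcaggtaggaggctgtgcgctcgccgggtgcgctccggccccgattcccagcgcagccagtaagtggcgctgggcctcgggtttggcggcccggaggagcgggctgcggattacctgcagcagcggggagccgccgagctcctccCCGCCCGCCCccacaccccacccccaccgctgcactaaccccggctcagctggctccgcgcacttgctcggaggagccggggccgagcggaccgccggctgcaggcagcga
TENM2 inner start, chr5:167754679-167754978, plus strand: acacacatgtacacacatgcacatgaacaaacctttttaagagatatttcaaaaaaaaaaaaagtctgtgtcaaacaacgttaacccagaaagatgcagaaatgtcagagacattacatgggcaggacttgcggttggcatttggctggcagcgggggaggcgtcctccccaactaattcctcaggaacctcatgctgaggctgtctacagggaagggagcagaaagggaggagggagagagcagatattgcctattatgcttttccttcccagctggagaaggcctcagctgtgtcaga

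Of the 3 RPS6KA2 windows, the one nearest the 5' end lay wholly inside a peak of 1409 bases and the middle one wholly inside the gene's widest peak, of 2127 bases. The middle window was the richest in motif letters, with 5 GC boxes, 4 CCAAT boxes and 31 CpG dinucleotides. The RPS6KA2 window farthest from the 5' end had 6 CpG, and the nearest peak lay 1810 bases away. The NALF1 window had 32 CpG and 3 GC boxes, and its bases 202 to 300 lay in a peak of 1831 bases. The TRIO window, with 28 CpG and 3 GC boxes, was covered in full.

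Over the 11 windows, the 7 that overlapped a peak had 4, 9, 9, 15, 28, 31 and 32 CpG, and the 4 that did not had 3, 6, 14 and 32, so the ranges overlapped. The covered windows with 9 were 1 of MYO16 and 1 of CDH4, and the uncovered one with 14 was of CDH4, 8610 bases from a peak. The RYR2 window was 75.3% G and C with 32 CpG and 2 GC boxes, yet it overlapped no peak, and the nearest began 480 bases past the window's end. The inner TENM2 window had 4 CpG and no match to any of the patterns, and its bases 84 to 300 lay in a peak of 451 bases. Across all 34961 windows of the RefSeq table on chromosomes 1 to 22 and X, 54.8% overlapped a peak. Windows with a peak had a median of 25 CpG and those without one 4.

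Motif letters were common in promoters at large. The GC box occurred in 45.0% of all windows (65.2% of those with a peak and 20.6% of those without) and in 5 of the 11 windows of these genes. The CCAAT box occurred in 34.6% of all windows and 4 of the 11, and the TEAD pattern in 14.0% and 3 of the 11. The TATA box occurred in 11.5% and 1 of the 11. AP-1, CRE, ETS and NRF1 patterns, found in 7.68%, 1.85%, 10.3% and 1.24% of all windows, had 0 matches in the 11. A match describes letters and is not evidence of binding, and a missing match says nothing of the factor.

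Peak counts ran from 140 in TENM2 to 79 in CDH4. TENM2 (chromosome 5, 166979029 to 168264157, plus strand) is 1285 kb long. PTPRN2 (chromosome 7, 157539056 to 158587823, minus strand) held 130 over 1049 kb, and NALF1 (chromosome 13, 107163510 to 107867496, minus strand) 109 over 704 kb. RYR2 (chromosome 1, 237042184 to 237833988, plus strand) held 100, CDH13 (chromosome 16, 82626969 to 83800640, plus strand) 99 and MYO16 (chromosome 13, 108495716 to 109208005, plus strand) 98. RPS6KA2 (chromosome 6, 166409364 to 166862773, minus strand) held 94. TRIO (chromosome 5, 14143342 to 14510204, plus strand) held 82 and CDH4 (chromosome 20, 61252261 to 61940617, plus strand) 79. The median over 19970 protein-coding genes was 2 peaks.

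The 9 are not simply the genes with the highest counts. Of them, 7 were among the 9 genes with most peaks, and TRIO and CDH4 ranked 12 and 13. RANBP2, a nuclear pore gene whose RefSeq span is 1120 kb, held 109 peaks. GPHN, the synaptic scaffold gephyrin, held 88, and the phosphodiesterase gene PDE4D 86. Just below CDH4 came GPC5, a glypican, with 78. The difference between CDH4 and GPC5 was 1 peak.

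**Figure D1:**
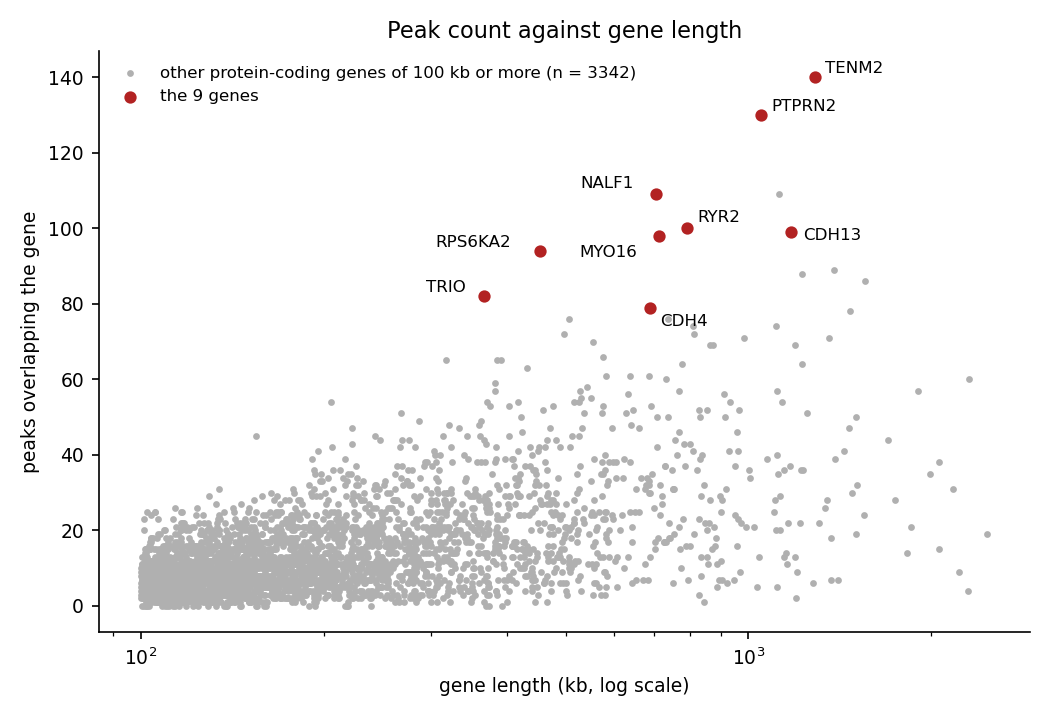
Each point is a protein-coding gene of 100 kb or more, with its length in kb on a log axis and the number of peaks that overlap it. The 9 genes (red) hold 79 to 140 peaks, and other genes reaching 79 or more are all over 1 Mb long.

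Divided by length, the order changed. TRIO was the densest, with 2.24 peaks per 10 kb, followed by RPS6KA2 with 2.07 and NALF1 with 1.55. These ranked 1, 2 and 5 among the 571 protein-coding genes at least as long as TRIO, the shortest of the 9, where the median was 0.392 per 10 kb and 23 peaks. MYO16 held 1.38 per 10 kb, RYR2 1.26, PTPRN2 1.24, CDH4 1.15 and TENM2 1.09. CDH13 was the sparsest, with 0.844, and ranked 69. Peaks covered 14.3% of the bases of RPS6KA2 and 13.4% of TRIO, against 5% of CDH13 and 6.52% of TENM2.

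Genes of similar length outside the 9 held far fewer peaks at the median, which the choice by count favours. The 9 genes were left out of every length class. Among 185 genes outside the 9 and 0.5 to 2 times as long as TENM2, the median was 29 peaks (interquartile range 17 to 41, highest 109). Of these, 0 were denser than TENM2, but PTPRN2, NALF1, RYR2, MYO16 and CDH4, left out though of that length range, were denser. Among 1409 genes of TRIO's length class the median was 15 (9 to 24, highest 76), and 1 was denser. For CDH4, 19 of 594 genes were denser, and for CDH13 7 of 212.

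Of 27 paralogs or family members (median length 180 kb), the median held 8 peaks and 0.524 per 10 kb. That 0 of them reached the 79 peaks of CDH4 is no result about paralogs. Only 13 of all 19970 protein-coding genes did, and the 9 were chosen by count. The teneurin TENM3, slightly longer than TENM2 (1360 kb), held 71, TENM4 16 over 788 kb and TENM1 3 over 828 kb. RYR1 (skeletal muscle) held 18 and RYR3 16. KALRN, the paralog of TRIO, held 35 over 693 kb, or 0.505 per 10 kb. Among RSK kinases, RPS6KA1, RPS6KA3 and RPS6KA6 held 3, 2 and 3. CDH2 held 11, CDH1 8 and CDH12 25 over 1100 kb. Short family members could be dense with few peaks, as CDH15 with 7 (2.95 per 10 kb) and PTPRN with 4 (2.02 per 10 kb).

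In a list of 30 other very long genes (median length 1450 kb) the median was 31.5 peaks and 0.187 per 10 kb. None of the 30 was as dense as CDH13, which itself ranked 69 by density among the 571 genes at least as long as TRIO. RBFOX1, a splicing regulator, is 2470 kb long and held 19 peaks. DMD, the dystrophin gene, held 9 over 2220 kb, and the receptor phosphatase gene PTPRD 4 over 2300 kb.

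The neighbourhood differed from gene to gene. TRIO stood out from both flanks, with 2.24 peaks per 10 kb against 0.65 and 0.68 in the 1 Mb below and above it. RYR2 (1.26 against 0.88 and 0.52), NALF1 (1.55 against 1.13 and 1.18) and RPS6KA2 (2.07 against 1.09 and 1.72) were also denser than either side. For TENM2 (1.09 against 0.31 and 1.08) and MYO16 (1.38 against 1.36 and 1.33) 1 or both flanks were nearly as dense as the gene. PTPRN2 (1.24 against 1.46 and 1.27), CDH13 (0.844 against 0.92 and 1.5) and CDH4 (1.15 against 0.53 and 2.18) were no denser than at least 1 flank.

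PTPRN2 lies near the end of chromosome 7, and its upper flank is the 748 kb up to the end of the chromosome's last listed peak. NALF1 and MYO16 are neighbours on chromosome 13, 628 kb apart, and the stretch between them held 75 peaks, or 1.19 per 10 kb, while the chromosome as a whole held 0.502. All 9 genes were denser than their chromosomes, which ranged from 0.502 to 0.869 per 10 kb, as a choice by peak count favours. The share of other genes above their chromosome's density was not computed. A chromosome's density was taken from its first to its last RefSeq gene, stretches without peaks included. MDA-MB-231 is aneuploid, copy number was not measured, and its part in these densities was not tested.

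**Figure D2:**
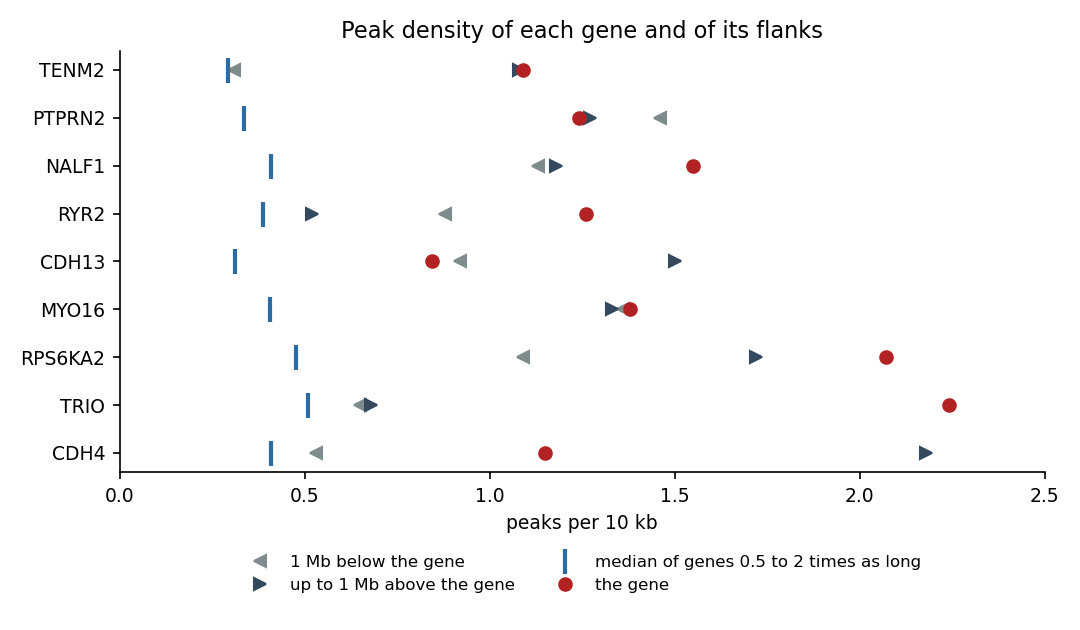
Peaks per 10 kb in each of the 9 genes (red). Triangles show the 1 Mb on each gene's lower-coordinate side and up to 1 Mb on its higher-coordinate side. The blue bar is the median of genes outside the 9 that are 0.5 to 2 times as long. TRIO lies far above both flanks, and CDH13 below both.

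Peaks followed each other at a median distance of 3.8 kb between centres in TRIO and 7.4 kb in CDH4, with the other genes between. The distance was 4.84 kb in MYO16, 5.14 kb in RPS6KA2, 5.63 kb in PTPRN2 and in NALF1, 6.25 kb in RYR2, 6.52 kb in TENM2 and 6.99 kb in CDH13. RPS6KA2 was the most regular, with a coefficient of variation of the distances of 0.634, followed by CDH4 with 0.69. PTPRN2 was the least regular (1.26), with 17 of its 129 distances under 1 kb and 4 over 30 kb. CDH13 (1.17) and TENM2 (1.13) came next, with 9 and 7 distances over 30 kb but 4 and 2 under 1 kb.

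The longest stretches without a peak showed the same contrast. CDH13 had 88.7 kb without one (82847201 to 82935879), TENM2 85.9 kb (167399614 to 167485500) and PTPRN2 70.5 kb (158165619 to 158236120). In RPS6KA2 the longest was 13.2 kb and in TRIO 17.2 kb. In NALF1 it was 23.6 kb.

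The densest 10 kb held 6 peaks in PTPRN2, RYR2, RPS6KA2 and TRIO, 5 in TENM2, NALF1, CDH13 and MYO16, and 4 in CDH4. Where windows tied, the one at the lowest coordinate is described. PTPRN2, RPS6KA2, CDH13 and CDH4 had further windows elsewhere in the gene with as many peaks. In PTPRN2 the peaks of the window described lay in intron 16 (157581346 to 157588373), each between 217 and 627 bases wide. In RYR2 the peaks ran from intron 8 over exons 9 and 10 into intron 10 (237386345 to 237395933). In CDH13 and CDH4 the window described was close to the 5' end. These windows included the peak of 1388 bases downstream of the CDH13 start and the peak of 2601 bases downstream of the CDH4 start.

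**Figure D3:**
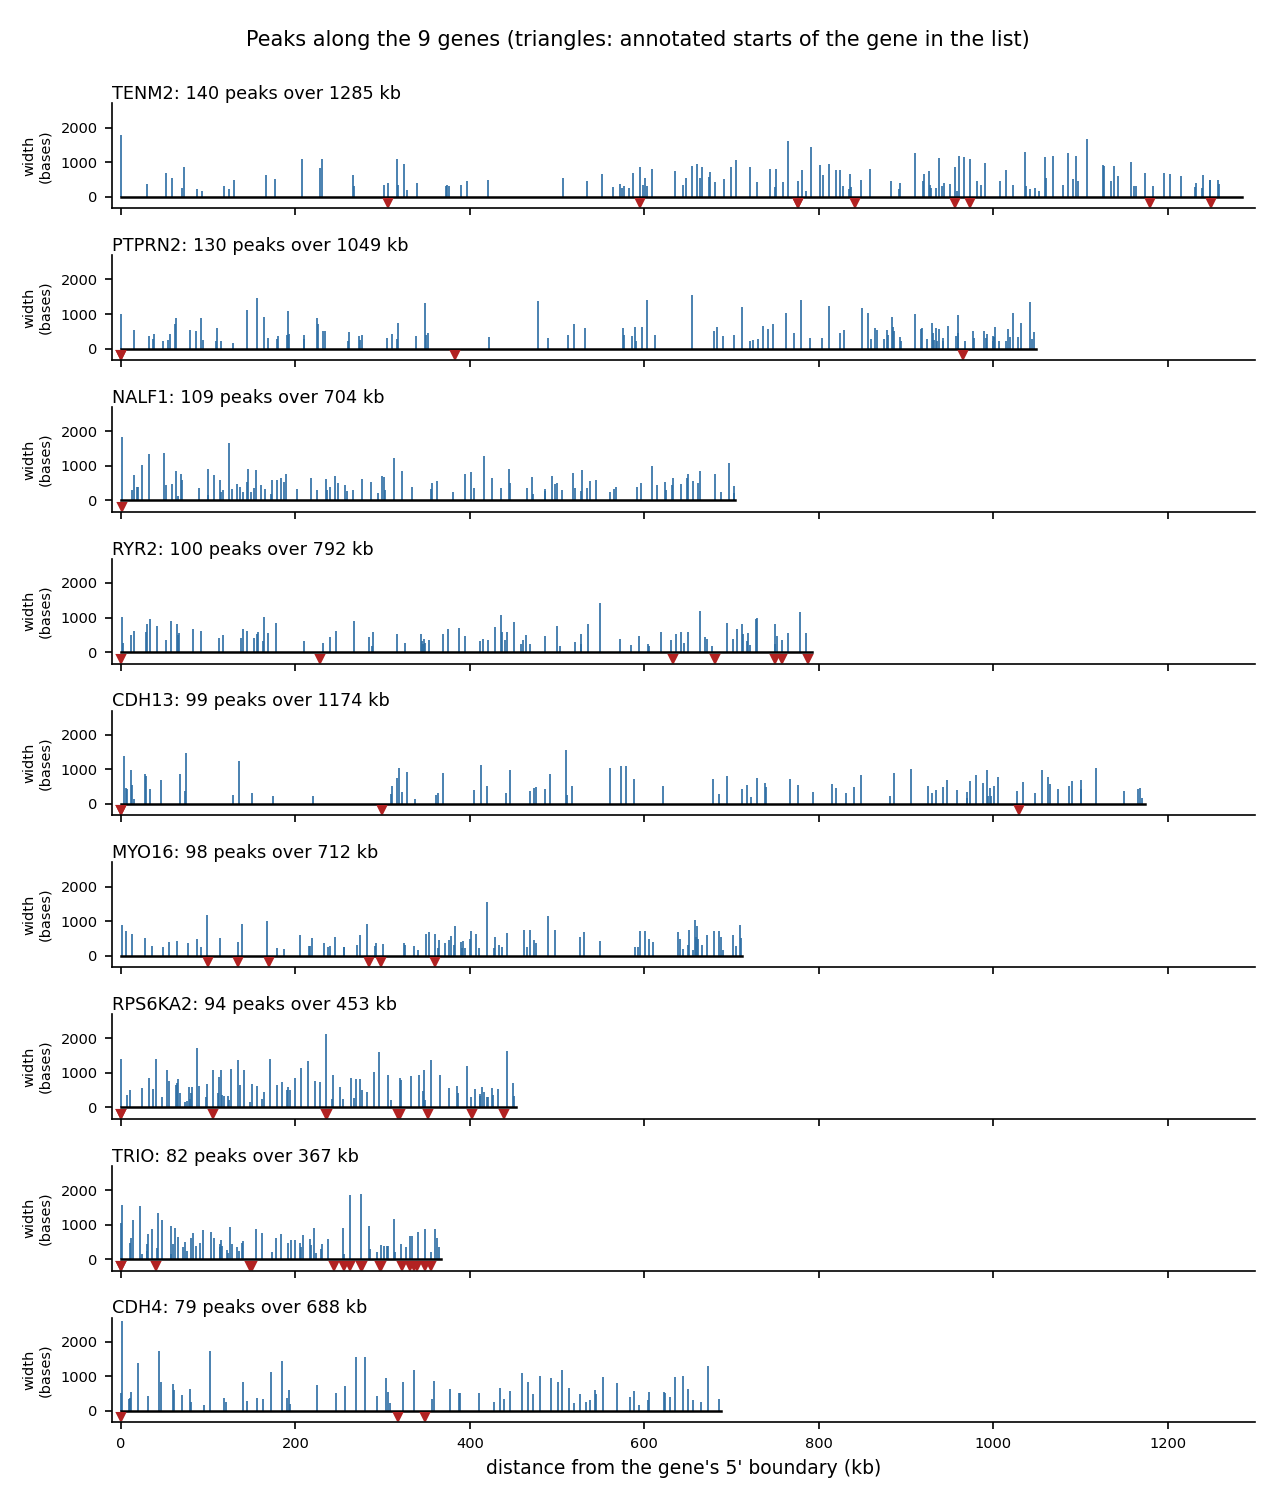
Each blue line is a peak at its distance in kb from the gene's RefSeq 5' boundary, with its height the peak width in bases, and red triangles mark the gene's annotated starts named in the list. TENM2 and CDH13 show long stretches without peaks, while TRIO and RPS6KA2 are filled throughout.

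Along the gene, peaks were spread with no common gradient. In all, 422 of 931 (45.3%, 95% Wilson interval 42.2 to 48.5, which covers counting error over peaks only) lay on the 5' side of the gene's midpoint. TENM2 was weighted to the 3' side of its RefSeq span, with 46 of 140 peaks (32.9%, 25.6 to 41) before the midpoint. The first 306 kb of that span lies before the list's Ensembl transcripts, so the share depends on the boundary used. The share over the Ensembl span of TENM2 was not computed. Of 10 equal segments numbered from the 5' end, segment 8 held 22 peaks and segment 4 held 4. PTPRN2 had 51 of 130 (39.2%, 31.3 to 47.8) before the midpoint, and its last 2 segments held 50 together. MYO16 had 18 in segment 10 and 17 in segment 6, against 3 in segment 8. NALF1, with 8 to 14 per segment, and RYR2, with 6 to 13, were even by comparison. TRIO (56.1% before the midpoint), RPS6KA2 (54.3%) and NALF1 (54.1%) were the genes above 50%.

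**Figure D4:**
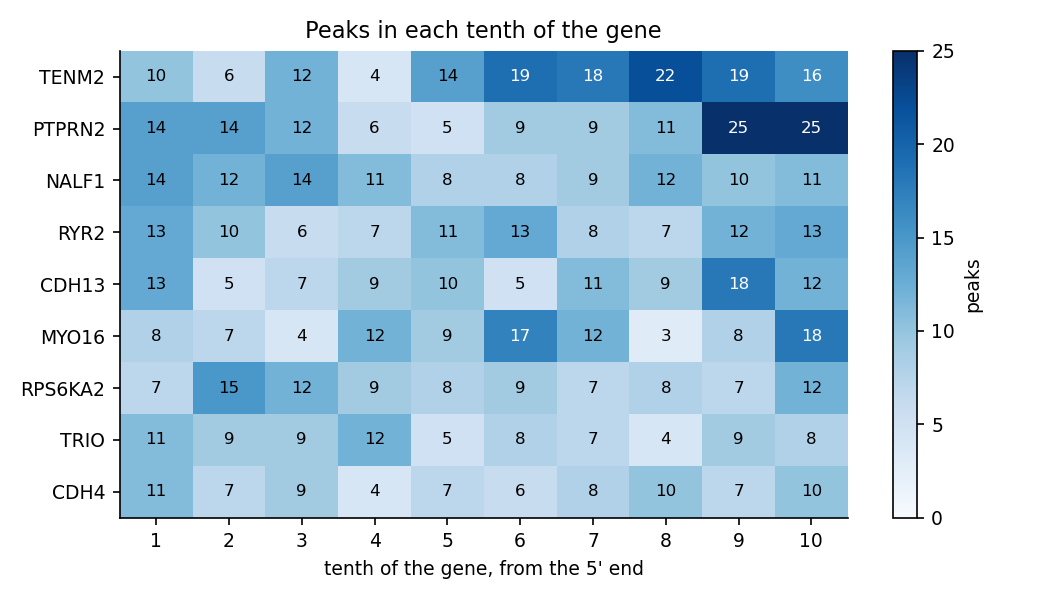
Number of peaks in each of 10 equal segments of each gene, from the 5' end on the left to the 3' end on the right, with darker cells for more peaks. The last 2 segments of PTPRN2 hold 25 each, and the last 5 of TENM2 hold 94 of 140.

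By the list's own annotation, introns held 754 of the 931 peaks (81%, Wilson interval 78.3 to 83.4), against 34.1% of the whole list, which also covers intergenic sequence. The interval covers counting error over peaks only. By gene the share ran from 68.6% in TENM2 to 92.7% in NALF1. Exons held 42, promoters (within 3 kb of any annotated transcript start) 97 in 3 distance classes of 54, 19 and 24, and 3' UTRs 8. Another 30 were annotated as intergenic, 19 in TENM2 and 11 in MYO16. For these genes the list's Ensembl transcripts begin at 167284799 and 108596152, which is 306 kb and 100 kb inside the RefSeq span.

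Single introns carried a large part of the peaks in some genes. In NALF1, whose annotated transcript has 2 introns, intron 1 held 97 of the 101 intronic peaks (96%), over a stretch of at least 644 kb. In CDH4, intron 2 of 15 held 46 of the 70 intronic peaks over at least 472 kb. In TENM2, intron 2 of 28 held 47 of 96 over at least 473 kb. The stretch is measured from the first to the last such peak, since intron boundaries are not in the list. Intron 1 of RYR2 held 26 of 74 over 199 kb, and introns 2 and 3 of the long RPS6KA2 transcript held 21 and 28 of that gene's 94 peaks. Per 10 kb of stretch, intron 1 of NALF1 held 1.51 peaks (whole gene 1.55), intron 2 of CDH4 0.975 (1.15) and intron 2 of TENM2 0.993 (1.09). The stretch in RYR2 held 1.31 (1.26) and those in RPS6KA2 2.5 and 2.13 (2.07).

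Other genes spread their peaks over many introns. CDH13 had peaks in 12 of 13 introns, with 16 in intron 1 and 12 in intron 6. MYO16 had peaks in 24 of 34 introns and at most 8 in any of them. PTPRN2 had peaks in 15 of 21, led by intron 11 with 25 and intron 2 with 21. In RYR2, peaks were annotated to 29 of 104 introns, and 16 of the 42 exonic peaks lay in RYR2 alone. The widest RYR2 peak, 1414 bases at 237590354 to 237591767, was annotated to exon 31 of 105. TRIO was annotated through more than 1 transcript: intron 1 of a transcript of 3 introns held 33 peaks over 117 kb, or 2.81 per 10 kb, and intron 34 of 56 of the long transcript held 8.

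The outermost 5' boundary lay inside a peak in 6 of the 9 genes. The share over all genes was not computed, and 54.8% of all RefSeq promoter windows, each 300 bases long, overlapped a peak. The count therefore shows nothing particular to these genes. At TENM2 that peak, 1779 bases at 166977886 to 166979664, was the widest of the gene. The list annotates it as intergenic, at -51516 bases from the nearest transcript start it names, where negative means upstream. PTPRN2 had a peak of 999 bases (158587538 to 158588536) and NALF1 its widest, 1831 bases (107865715 to 107867545). RPS6KA2, TRIO and CDH4 had peaks of 1409, 1046 and 512 bases on the boundary. The nearest peak lay 276 bases from the boundary of MYO16, 529 bases from that of RYR2 and 2561 bases from that of CDH13.

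CDH13 and CDH4 had no peak on any start that the list names for them, 4 in CDH13 and 3 in CDH4. The outer CDH13 starts, at 82626803 and 82627039, were 2727 and 2491 bases from a peak of 1388 bases at 82629530 to 82630917. For the whole of the 9 genes, 62 starts were named by the list as the nearest to some peak. Of these, 19 lay inside a peak and 38 within 1 kb of one. Starts that are nearest to no peak are not in this set, so the shares are not shares of all annotated starts.

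Inner starts lay in peaks in several genes. TENM2 had a peak over 6 of 9 starts, among them those at 167284799 (392 bases), 167573974 (868 bases), 167934862 (853 bases) and 167952375 (1101 bases). RPS6KA2 had a peak over 6 of 10. Its peak of 2127 bases covered the starts at 166627243 and 166627972, and a peak of 1073 bases that at 166757911. MYO16 had 1 of 6 covered, at 108855296 in a peak of 636 bases, and RYR2 1 of 7, near its 3' end at 237800029.

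TRIO had 18 named starts, with 2 inside a peak and 13 within 1 kb of one. The 2 were its widest peaks, of 1889 bases over the start at 14418783 and 1851 bases over that at 14406214. At its 5' end the starts at 14143702 and 14143837 fell in a stretch of 320 bases without a peak, between peaks of 1046 and 1571 bases. CDH4 showed the same arrangement, with its start at 61252426 in a stretch of 251 bases between peaks of 512 and 2601 bases. The rule by which neighbouring peaks were kept apart is not given in the sources used here.

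Few peaks were near any start. Of the 931, 54 (5.8%, 4.47 to 7.49) lay within 1 kb of an annotated transcript start, against 19.8% of the whole list. More than 10 kb away lay 685 (73.6%, 70.7 to 76.3), against 46% of the list. The intervals cover counting error over peaks only, and other long genes were not compared. By gene, 2.31% (PTPRN2) to 14.6% (TRIO) lay within 1 kb and 57.3% (TRIO) to 91.7% (NALF1) beyond 10 kb. NALF1 was the extreme, with 100 of 109 peaks beyond 10 kb. In TRIO, with its many starts, 47 of 82 were.

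The median peak width was 508 bases (interquartile range 337 to 753.5) against 539 (346 to 843), and among intronic peaks 509.5 against 489 for introns of the whole list. Promoter-class peaks of the 9 genes had a median of 549 bases against 683. Of all their peaks 11.4% (9.5 to 13.6, counting error over peaks only) were 1 kb or wider against 16.9% of the list. By gene that share ran from 4.08% in MYO16 to 20.2% in RPS6KA2. RPS6KA2 had the widest peaks, with a median of 602 bases and 19 of 94 at 1 kb or more, followed by CDH4 with 546 and 14 of 79. PTPRN2 and MYO16 had the narrowest, with medians of 439 and 457. The remaining medians were 489 in NALF1, 503 in TENM2, 508 in TRIO, 511.5 in RYR2 and 517 in CDH13.

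The widest peak of all, 2601 bases in CDH4 (61252587 to 61255187), began 161 bases downstream of the annotated start. In PTPRN2, CDH13 and MYO16 the widest lay deep in an intron: 1557 bases in intron 10 of PTPRN2 (157932462 to 157934018), 1549 bases in intron 4 of CDH13 (83136661 to 83138209) and 1566 bases in intron 16 of MYO16 (108915096 to 108916661). The middle quartiles overlapped among all 9 genes.

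**Figure D5:**
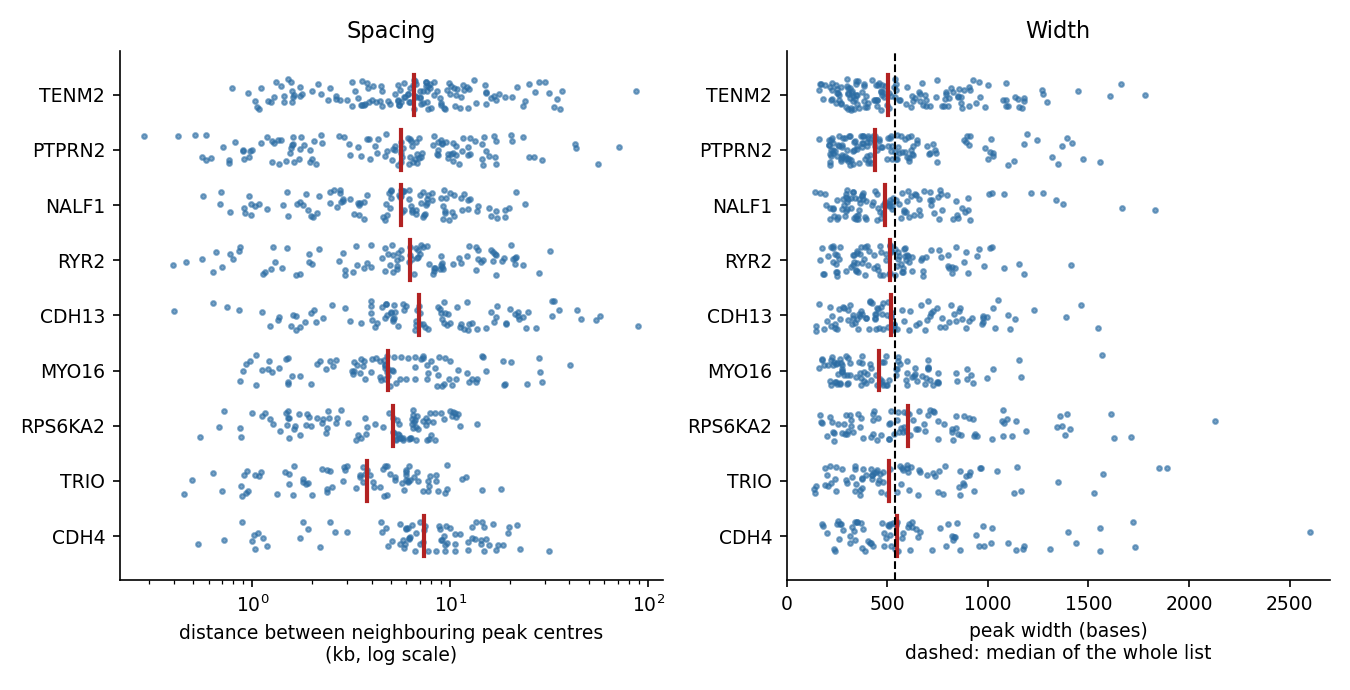
Left, distance in kb between neighbouring peak centres on a log axis; right, peak width in bases; each point is a peak or a pair of neighbours, red bars are medians and the dashed line is the median width of the list, 539 bases. Median spacing runs from 3.8 kb in TRIO to 7.4 kb in CDH4, and median width from 439 to 602 bases.

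Other genes lie within these spans. RefSeq places 52 inside or across the edge of the 9 genes: 35 long non-coding RNAs, 8 microRNAs, 5 pseudogenes, 2 small nucleolar RNAs and 2 protein-coding genes. A peak overlapped 33 of them, and 74 of the 931 peaks (7.95%) fell on such a gene. The share was highest in CDH13 (16 peaks, 16.2%), MYO16 (14, 14.3%) and NALF1 (13, 11.9%), and was 1 peak of 100 in RYR2. The share of each span's bases that such genes fill was not computed, nor the share with a peak over all genes of these kinds. These values therefore do not show an excess of peaks on them. CDH13 holds long ones, among them the non-coding RNAs LOC101928446 and CEDORA, of 56320 and 52560 bases.

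Of the protein-coding ones, RAMACL lies within RPS6KA2 (166583009 to 166586678) and held no peak, with the nearest 23 bases away. LOC124903206 crosses the 5' boundary of NALF1, and the widest NALF1 peak overlaps both, so the peak cannot be assigned to either gene alone. NALF1-IT1, a non-coding RNA of 48098 bases inside NALF1, held 8 peaks, and LOC105370356 and LOC124903207 inside MYO16 held 6 each. Of the antisense RNAs, TENM2-AS3 held 4 peaks, TENM2-AS2 and TENM2-AS4 2 each, and PTPRN2-AS1 and CDH4-AS1 2 each, while TENM2-AS1 held 0.

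Nested genes, and some genes outside the spans, also decide which gene the list names for a peak. The nearest transcript belonged to another gene for 511 of the 931 peaks (54.9%). In NALF1 this was so for 106 of 109, of which 35 were given to the small nucleolar RNA gene SNORD31B and 25 to MIR1267. In PTPRN2, 23 peaks were given to MIR595 and 12 to MIR153-2, and in RYR2 23 to MIR4428. Genes outside the span were named for 12 peaks of CDH4, 5 of MYO16, 3 of PTPRN2 and 2 of TENM2. In TRIO all 82 peaks were given to TRIO itself. Of the peaks within its own span, a count by nearest gene would thus give NALF1 3 and TRIO 82. Peaks outside the spans were not counted this way.

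A peak overlapped the hairpin of 2 of the 8 microRNAs, and the share over all microRNAs was not computed. The mature sequences of the 2 are shown with the seed, bases 2 to 8, in capitals.
hsa-miR-4428, inside RYR2, chr1:237471164-237471185, plus strand: cAAGGAGAcgggaacauggagc
hsa-miR-3182, inside CDH13, chr16:83508349-83508365, plus strand: gCUUCUGUaguguaguc

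The MIR4428 hairpin lay wholly in a peak at 237470713 to 237471429. That of MIR3182 (83508346 to 83508408) was met at its 3' end by a peak at 83508397 to 83508634, which does not reach the mature sequence. The 2 seeds differ. MIR595 was 713 bases and MIR153-2 1477 bases from the nearest peak, and MIR1267 2551 bases. Whether any of these RNAs is made in these cells was not measured.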

How the data were processed

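The authors ran ATAC-seq on 5 control and 5 ARID1A knockout libraries of MDA-MB-231 cells. Bowtie2 2.3.5.1, MACS2 2.2.6 and build hg38 are named for alignment and peak calling per the submitters' processing notes. Settings that fix the number and edges of peaks (threshold, duplicates, Tn5 shift, how libraries were combined) and the gene annotation's release: not given in the sources used here. Per the file headers, the deposited list has 17 columns: peak position, width in bases, annotation class, nearest Ensembl transcript and its distance. It holds no value per library, so the depth is unknown and the planned edgeR test of knockout against control was not run.

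Symbols and spans came from RefSeq (GRCh38.p14, chromosomes 1 to 22 and X), promoter and microRNA sequences from RefSeq tables of that build. All 9 symbols matched. The paired Ensembl gene, and with it the strand, was the one whose transcripts overlapped the span best. The table held promoter windows for 7 genes, not for PTPRN2 and CDH13, and mature sequences for 5 of the 8 nested microRNAs. Overlap means at least 1 base. Distances between peaks are between centres. Flanks of 1 Mb exclude peaks that touch the gene. Overlap counting was checked on simulated intervals. The genes, the lists of paralogs and long genes and the alternatives were chosen with earlier results of these data known. Named by rule are the 9 genes, protein-coding genes inside them, paralogs, the densest and sparsest of the long genes, and the first 3 genes by count outside the 9, except an item that is not reported here. PDE4D, GPC5, RBFOX1, DMD and the nested RNAs were chosen after their values were seen. Python 3.11.15, numpy 2.4.6, pandas 2.3.3 and matplotlib 3.10.9 were used.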

Additional observations from a re-analysis of the deposited data

How the results depend on the processing

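No paired analysis was possible because libraries have no values of their own in the peak list, and for the same reason the fits of knockout against control, with a replicate block, with DESeq2 or without each replicate, were not run. The total of 931 peaks was 927 by peak centre, 834 without promoter peaks, 859 with peaks under 500 bases apart counted as 1, 857 without peaks on other genes and 898 in the span of the paired Ensembl gene, an alternative chosen after seeing the data. With peaks of the median length or longer, as the alternative keeps fewer peaks by construction, it was 426 and the median spacing 10.7 kb instead of 5.71 kb. Of 81 values for single genes under these settings, 72 stayed within 1.5 times, and the 9 that did not were the counts of longer peaks. Ranked by peaks per 10 kb among genes at least as long as TRIO, 3 of the 9 were among the first 9, against 7 by count. The share within 1 kb of a start, 5.8%, was 10.4% within 3 kb. The depth limit is unknown.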
